A study of Homo sapiens with 12 samples.

Results

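The 39 protein-coding genes of the human HOX clusters were described here across both fractions of an shCtrl and an shPRRC2B line. Every gene name made of HOX, a cluster letter from A to D and a number was taken, which gave 39 of the 59385 gene names in the count table. The HOXA genes lie on chromosome 7 (11 genes), the HOXB genes on chromosome 17 (10 genes), the HOXC genes on chromosome 12 (9 genes) and the HOXD genes on chromosome 2 (9 genes). This rule on names used no measured value, but the set was chosen with earlier results of these data known. Of the 39, 37 passed a filter on low counts and were tested among 18166 genes. HOXB1 had 0 counts in all 12 libraries and HOXC5 had at most 11 counts in any library, so neither was tested.

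HOX genes encode homeodomain transcription factors that give cells along the body axis their positional identity. Each of them has a number from its place in the cluster, and genes with the same number in different clusters are paralogs descended from one ancestral gene. In embryos, genes of low number are active early and towards the head, and genes of high number later and towards the tail and the tips of the limbs. Many HOX proteins bind DNA together with homeodomain partners of the TALE class, PBX and MEIS, and whether a cluster is open or silent is kept by trithorax and Polycomb chromatin complexes. Cultured cell lines tend to keep a HOX pattern that reflects the tissue they came from, and genes of the HOX10 and HOX11 groups are needed for the kidney and the hindlimb.

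The cells were HEK293T, a human embryonic kidney line, and carried a doxycycline (Dox) inducible shRNA with either a non-silencing sequence (shCtrl) or one against PRRC2B (shPRRC2B), an RNA-binding protein that takes part in translation initiation. Both lines received Dox for 36 h, and the design asked which mRNAs change their association with ribosomes when PRRC2B is depleted. Each line was a stable single clone, so the shRNA and the clone cannot be told apart. Total RNA and polysome RNA, the latter pooled from fractions 6 to 10 of a sucrose gradient, were sequenced after poly(A) selection from 3 biological replicates a line, which gave 12 libraries in 4 groups of 3.

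Between 9855734 and 20837542 read pairs were assigned to genes in a library, and levels are given as CPM, counts scaled to a common library size after TMM scaling over all libraries. PRRC2B itself was at 272, 313 and 258 CPM in the shCtrl total RNA libraries and at 97.9, 103 and 100 CPM in the shPRRC2B ones. Of 9 kidney lineage genes, 7 passed the filter, and their summed level was 153 to 166 CPM in shCtrl total RNA and 206 to 217 CPM in shPRRC2B total RNA, 76.1 to 90.5 CPM in shCtrl polysome RNA and 129 to 171 CPM in shPRRC2B polysome RNA. The part of this shift between the lines in any HOX difference was not tested. All 6 markers of blood, liver, fibroblast and endothelial cells failed the filter, and they summed to at most 1.63 CPM in any library. Replicate 1 of the polysome RNA stood apart in both lines, with counts that differed from the other replicates by a chi-square of 54.8 to 107 per degree of freedom, against 19.1 to 30.1 between the other polysome replicates. Counts of calls and medians over the HOX genes are given with and without them where they moved.

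All 4 clusters were expressed. In total RNA of shCtrl cells the HOX genes summed to 1078, 1091 and 993 CPM, and in shPRRC2B cells to 1020, 1050 and 1012 CPM. In polysome RNA the sums were 1156, 1032 and 978 CPM in shCtrl cells and 1562, 1302 and 1353 CPM in shPRRC2B cells. The total RNA sums of the lines overlapped, whereas every shPRRC2B polysome library was above every shCtrl polysome library. HOXD13 made up 8.96% to 16.9% of the polysome sum in shCtrl cells and 15.9% to 18.3% in shPRRC2B cells. Without it the polysome sums were 961, 940 and 872 CPM against 1284, 1095 and 1106 CPM, and they still did not overlap. In bulk RNA a change in the number of cells that express a gene and a change in its RNA per cell cannot be told apart.

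The clusters did not move alike. The HOXA sum went from 336 ± 16.7 CPM in shCtrl total RNA to 269 ± 2.97 CPM in shPRRC2B total RNA (SD, n = 3 each), and the HOXC sum from 145 ± 4.56 to 127 ± 2.76 CPM. The HOXB sum went from 323 ± 14.5 to 340 ± 10.4 CPM and the HOXD sum from 251 ± 18.0 to 292 ± 7.76 CPM. In polysome RNA the HOXB sum was 336 ± 13.6 CPM in shCtrl and 464 ± 19.6 CPM in shPRRC2B cells, and the HOXD sum 197 ± 61.4 and 358 ± 45.4 CPM. The HOXA polysome sums were 304 ± 21.7 and 324 ± 57.7 CPM, a difference smaller than the spread between replicates, and the HOXC sums 219 ± 16.9 and 260 ± 19.4 CPM. No test was made of these sums, since each adds up several genes.

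**Figure D1:**
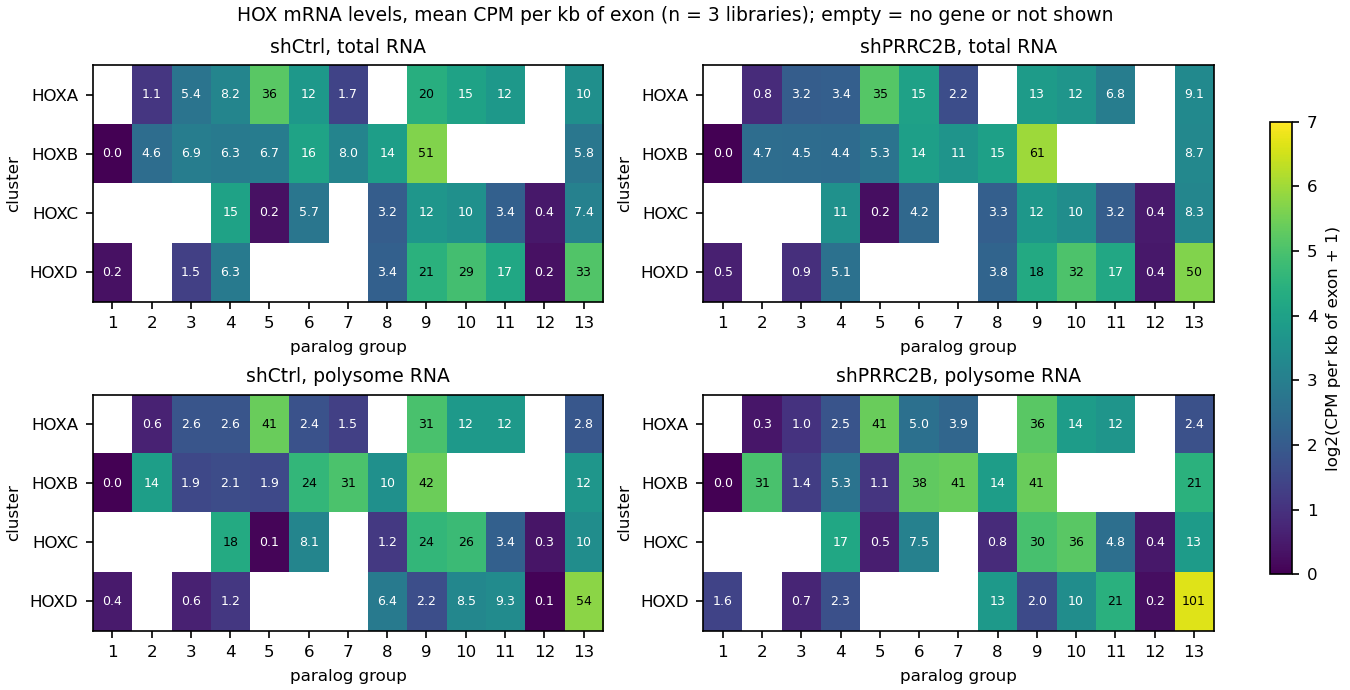
Mean level of each HOX gene in CPM per kilobase of exon (n = 3 libraries), drawn as a grid of cluster (rows) against paralog number (columns) for the 4 groups of line and fraction, with 1 member not shown. HOXB9, HOXA5 and HOXD13 are the highest genes of shCtrl total RNA at 50.5, 35.7 and 33.2 CPM per kb, and HOXB1 is at 0 in every panel.

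Compared between genes per kilobase of exon, HOXB9, a gene of the thoracic region, was the highest in total RNA of shCtrl cells at 50.5 ± 0.983 CPM per kb (SD, n = 3). HOXA5, known for its role in lung development, followed at 35.7 ± 1.38 CPM per kb and HOXD13, a gene of the digits and the urogenital tract, at 33.2 ± 3.78 CPM per kb. The last pair of levels did not differ beyond their spread. Exon length here includes stretches shared with other genes, where read pairs would not be counted, so genes that share exons may stand too low. HOXD10, with 18.2% of its exon length shared, was at 28.8 ± 0.838 CPM per kb. In the HOXC cluster, HOXC4 was highest in shCtrl total RNA (15.5 ± 0.734 CPM per kb) and HOXC10, a hindlimb and lumbar gene, in shCtrl polysome RNA (26.1 ± 4.26 CPM per kb), which did not differ from HOXC9 (23.95 ± 7.52 CPM per kb) beyond the spread. In shPRRC2B total RNA HOXC9 was at 11.98 ± 0.829 and HOXC4 at 10.7 ± 0.254 CPM per kb. In polysome RNA of shCtrl cells HOXD13 reached 54.2 ± 23.1 CPM per kb, and in shPRRC2B cells 101 ± 14.7 CPM per kb.

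Translation efficiency (TE) is the ratio of a gene's polysome level to its total RNA level, and its change is given on the log2 scale as shPRRC2B over shCtrl. The names TE-up and TE-down stand for an adjusted p under 0.05 together with a log2 change beyond 0.5. Every adjusted p comes from the quasi-likelihood test of edgeR, with Benjamini-Hochberg adjustment over all genes tested. Of the 37 HOX genes tested, 9 were TE-up, against 10.7% of all genes tested, and 0 were TE-down, against 16.4% of all genes. At an unadjusted p under 0.05, edgeR gave 14 HOX genes with a higher and 0 with a lower TE, and DESeq2 called 0 TE-down, with 0 also at an unadjusted p under 0.05. The TE-up genes were HOXA4, HOXA7, HOXA9, HOXB2, HOXB4, HOXB6, HOXC10, HOXD8 and HOXD11, so every cluster held at least 1. The median log2 TE change of the 37 was 0.36, where that of all genes tested was -0.03, and 28 of the 37 lay above 0. Leaving out single polysome libraries moved the HOX median between 0.23, without shPRRC2B replicate 1, and 0.52, without shCtrl replicate 1, and it was 0.24 without shCtrl replicate 3. The medians of all genes in these 3 fits were -0.099, -0.026 and -0.054. Without shCtrl polysome replicate 1 the count was 14 TE-up and 2 TE-down, HOXA3 and HOXB9, and without replicate 1 of the polysome RNA of both lines 14 TE-up and 3 TE-down, HOXA3, HOXB9 and HOXC8. The shares of all genes called in these fits were not counted. The calls of HOXA4, HOXA9, HOXB2, HOXB4, HOXB6 and HOXD11 remained under all the alternatives tried and with each library left out, while HOXC10 lost its call with 11 of the 12 libraries left out in turn, HOXD8 with 8 and HOXA7 with 5.

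**Figure D2:**
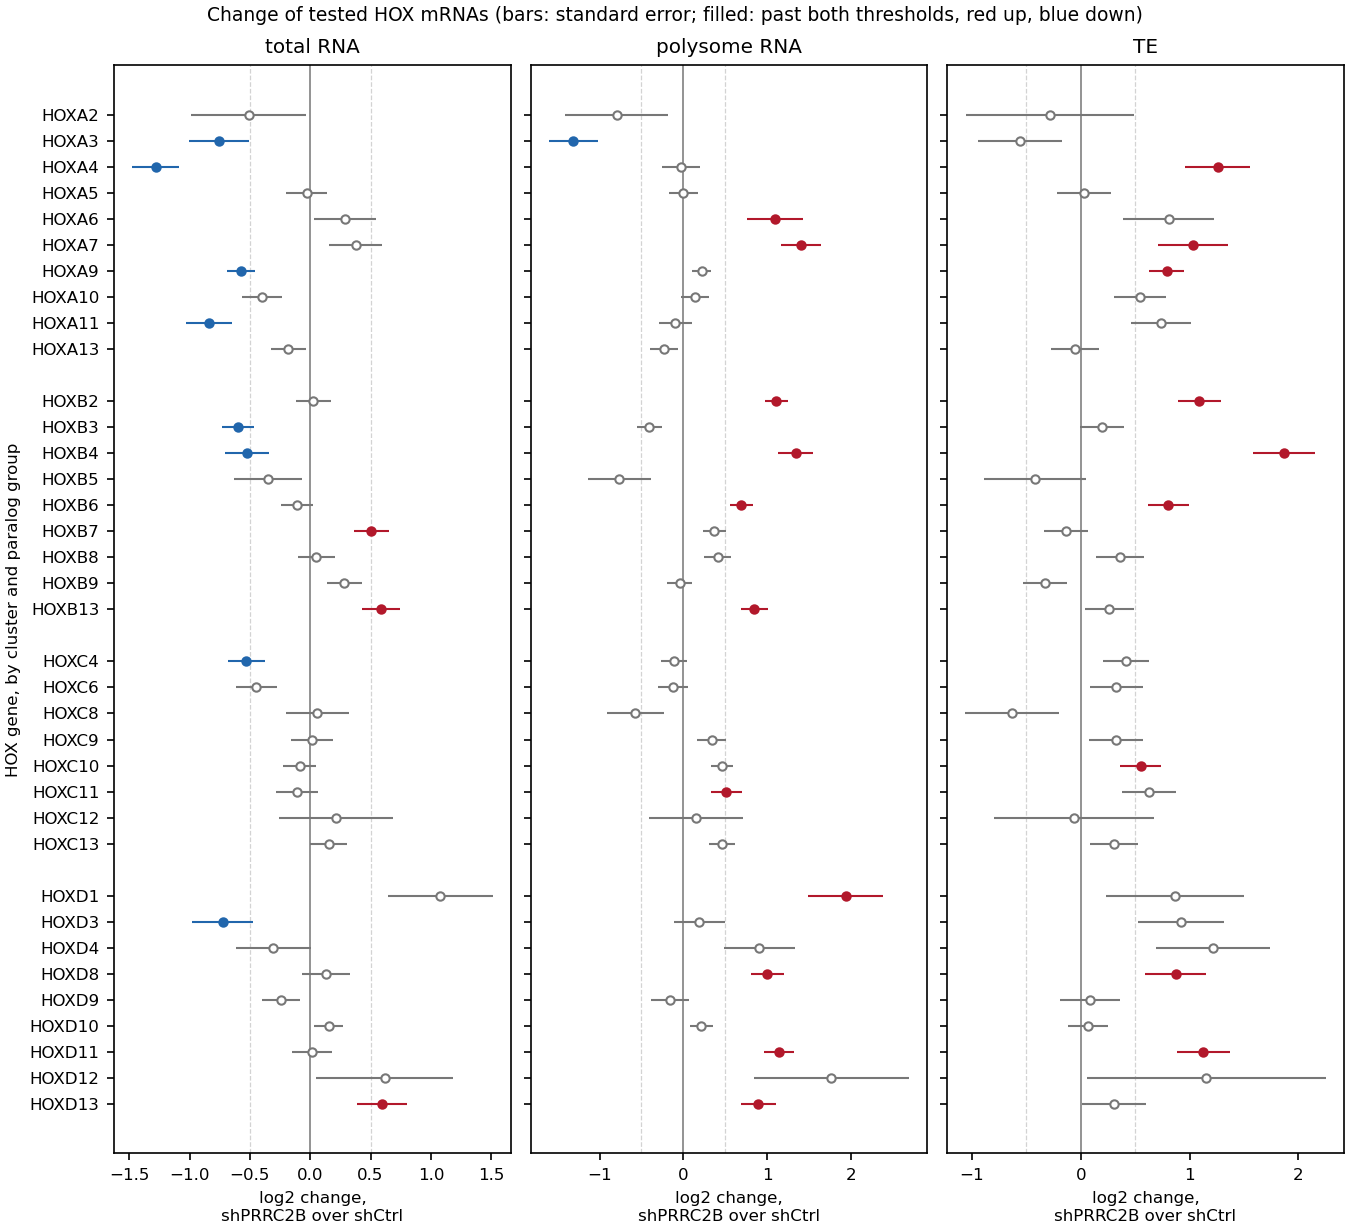
Log2 change between shPRRC2B and shCtrl cells in total RNA, polysome RNA and TE for the HOX genes tested, 1 of them not shown, ordered by cluster and number; points are fitted values, bars are standard errors, and filled points passed the thresholds. The filled TE points all lie above 0, from 0.55 for HOXC10 to 1.87 for HOXB4, and the TE values run from -0.63 to 1.87.

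A TE change combines the total and polysome comparisons, which use the same libraries, so the 3 are views of the same data and not separate evidence. Among the 9 TE-up genes, 5 had higher polysome RNA with no call in total RNA (HOXA7, HOXB2, HOXB6, HOXD8 and HOXD11), 2 had lower total RNA with no call in polysome RNA (HOXA4 and HOXA9), HOXB4 had both, and HOXC10 had neither past the thresholds. Without shPRRC2B polysome replicate 1 the polysome change of HOXB6 was 0.46, below the threshold of size.

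HOXB4 (chr17:48575507-48578350, minus strand, GRCh38), known for expanding blood stem cells when overexpressed, had the largest TE change of the HOX genes. In polysome RNA it was at 4.31, 4.34 and 3.88 CPM in the shCtrl libraries and at 11.4, 10.5 and 9.89 CPM in the shPRRC2B libraries. In total RNA it was at 14.04, 14.09 and 9.95 CPM in shCtrl and at 8.73, 10.1 and 7.74 CPM in shPRRC2B cells. The polysome values of the lines were far apart, whereas in total RNA the lowest shCtrl library was within the range of the shPRRC2B ones. The log2 change was 1.34 in polysome RNA (standard error, SE, 0.21), -0.53 in total RNA (SE 0.18, adjusted p = 0.0348, edgeR) and 1.87 in TE (SE 0.28, adjusted p = 0.000182, edgeR). The total RNA call was lost with 4 of the 12 libraries left out in turn, namely shCtrl total replicates 1 and 2 and shPRRC2B total replicates 1 and 3, and in 2 of the other alternatives, while the TE call was not lost in any.

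The HOXB4 neighbours were not all called in TE. HOXB2 (chr17:48540894-48545109, minus strand), which acts in hindbrain patterning, was at 35.7, 33.2 and 35.4 CPM in shCtrl polysome RNA and at 81.3, 62.3 and 82.0 CPM in shPRRC2B polysome RNA. Its total RNA was at 10.3, 12.5 and 11.1 CPM in shCtrl and at 10.7, 12.2 and 11.7 CPM in shPRRC2B cells. The polysome ranges were separate and the total RNA ranges overlapped, with log2 changes of 1.11 and 0.02, and the TE change was 1.09 (SE 0.20, adjusted p = 0.000815, edgeR). HOXB6 (chr17:48595751-48604992, minus strand), a gene of the trunk, was at 62.5, 69.4 and 53.5 CPM in shCtrl and at 117, 86.0 and 96.9 CPM in shPRRC2B polysome RNA. In total RNA it was at 40.5, 42.3 and 38.9 CPM in shCtrl and at 38.5, 36.9 and 37.2 CPM in shPRRC2B cells. Its shPRRC2B polysome values were all higher, its total RNA values were slightly lower (log2 change -0.11, adjusted p = 0.547, edgeR), and the TE change was 0.81 (SE 0.19, adjusted p = 0.00455, edgeR). The genes between and beyond them were not called in TE. The TE change was 0.19 for HOXB3, -0.42 for HOXB5 (SE 0.47) and -0.14 for HOXB7. HOXB5 had few polysome reads, 62, 32 and 12 counts in shCtrl and 29, 16 and 24 in shPRRC2B cells. The differences between neighbours were not tested.

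HOXA4 (chr7:27128507-27130780, minus strand), a paralog of HOXB4, changed by a different route. In total RNA it was at 14.3, 15.3 and 12.8 CPM in shCtrl and at 5.93, 5.54 and 5.99 CPM in shPRRC2B cells. In polysome RNA it was at 3.65, 4.99 and 4.77 CPM in shCtrl and at 4.73, 4.97 and 3.42 CPM in shPRRC2B cells. The total RNA fell in all replicates, by 1.28 on the log2 scale, while the polysome values overlapped (log2 change -0.03), and the TE change was 1.26 (SE 0.30, adjusted p = 0.00513, edgeR). HOXA9 (chr7:27162438-27175180, minus strand), a gene of blood progenitors and of leukaemias in which it acts with MEIS1, was at 64.2, 55.3 and 60.8 CPM in shCtrl total RNA and at 40.4, 39.7 and 41.3 CPM in shPRRC2B total RNA. Its polysome RNA was at 90.6, 103 and 88.3 CPM in shCtrl and at 119, 103 and 106 CPM in shPRRC2B cells. Total RNA fell by 0.57 on the log2 scale with no overlap of the lines, the polysome values met at 103 CPM, and the TE change was 0.79 (SE 0.16, adjusted p = 0.00203, edgeR).

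HOXD11 (chr2:176104216-176109754, plus strand), which with its paralog HOXA11 is needed for the kidney and the forearm, was at 20.9, 21.3 and 17.1 CPM in shCtrl and at 56.7, 40.6 and 33.4 CPM in shPRRC2B polysome RNA. Its total RNA was at 38.1, 37.7 and 32.1 CPM in shCtrl and at 39.0, 35.0 and 35.3 CPM in shPRRC2B cells. The polysome values were separate and the total RNA values were not, and the TE change was 1.13 (SE 0.24, adjusted p = 0.00247, edgeR). HOXA11 was different. Its total RNA was at 34.0, 33.7 and 30.2 CPM in shCtrl and at 17.8, 19.2 and 17.8 CPM in shPRRC2B cells, a fall of 0.84 on the log2 scale (SE 0.19, adjusted p = 0.00293, edgeR). Its polysome RNA was at 46.1, 29.8 and 23.5 CPM in shCtrl and at 36.9, 30.2 and 26.1 CPM in shPRRC2B cells, overlapping throughout, and its TE change of 0.74 missed the threshold (adjusted p = 0.054, edgeR). It was TE-up in 7 of 12 alternatives that kept all libraries, those with a replicate block among them, and without shCtrl polysome replicate 1.

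The other 3 TE-up genes depended on the setting. HOXA7 (chr7:27153716-27157936, minus strand), a gene of the thoracic skeleton, was at 3.75, 3.15 and 3.88 CPM in shCtrl and at 11.8, 9.07 and 7.71 CPM in shPRRC2B polysome RNA. In total RNA it was at 4.19, 3.76 and 4.08 CPM in shCtrl and at 4.90, 5.65 and 5.03 CPM in shPRRC2B cells, and its TE change was 1.03 (SE 0.32, adjusted p = 0.0246, edgeR). Both fractions were higher in every shPRRC2B library, and only the polysome difference passed the test. HOXD8 (chr2:176129694-176132695, plus strand) was at 21.9, 16.2 and 12.1 CPM in shCtrl and at 27.8, 36.6 and 36.8 CPM in shPRRC2B polysome RNA. In total RNA it was at 7.92, 10.1 and 9.05 CPM in shCtrl and at 10.3, 10.6 and 8.83 CPM in shPRRC2B cells, which overlapped, with a TE change of 0.87 (SE 0.28, adjusted p = 0.0277, edgeR). HOXC10 (chr12:53985065-53990279, plus strand) was at 73.2, 58.8 and 53.8 CPM in shCtrl and at 90.5, 79.4 and 86.4 CPM in shPRRC2B polysome RNA. Its total RNA was at 24.1, 26.5 and 23.1 CPM in shCtrl and at 24.1, 24.0 and 21.2 CPM in shPRRC2B cells, and its TE change was 0.55 (SE 0.19, adjusted p = 0.0377, edgeR), close to the threshold of 0.5.

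**Figure D3:**
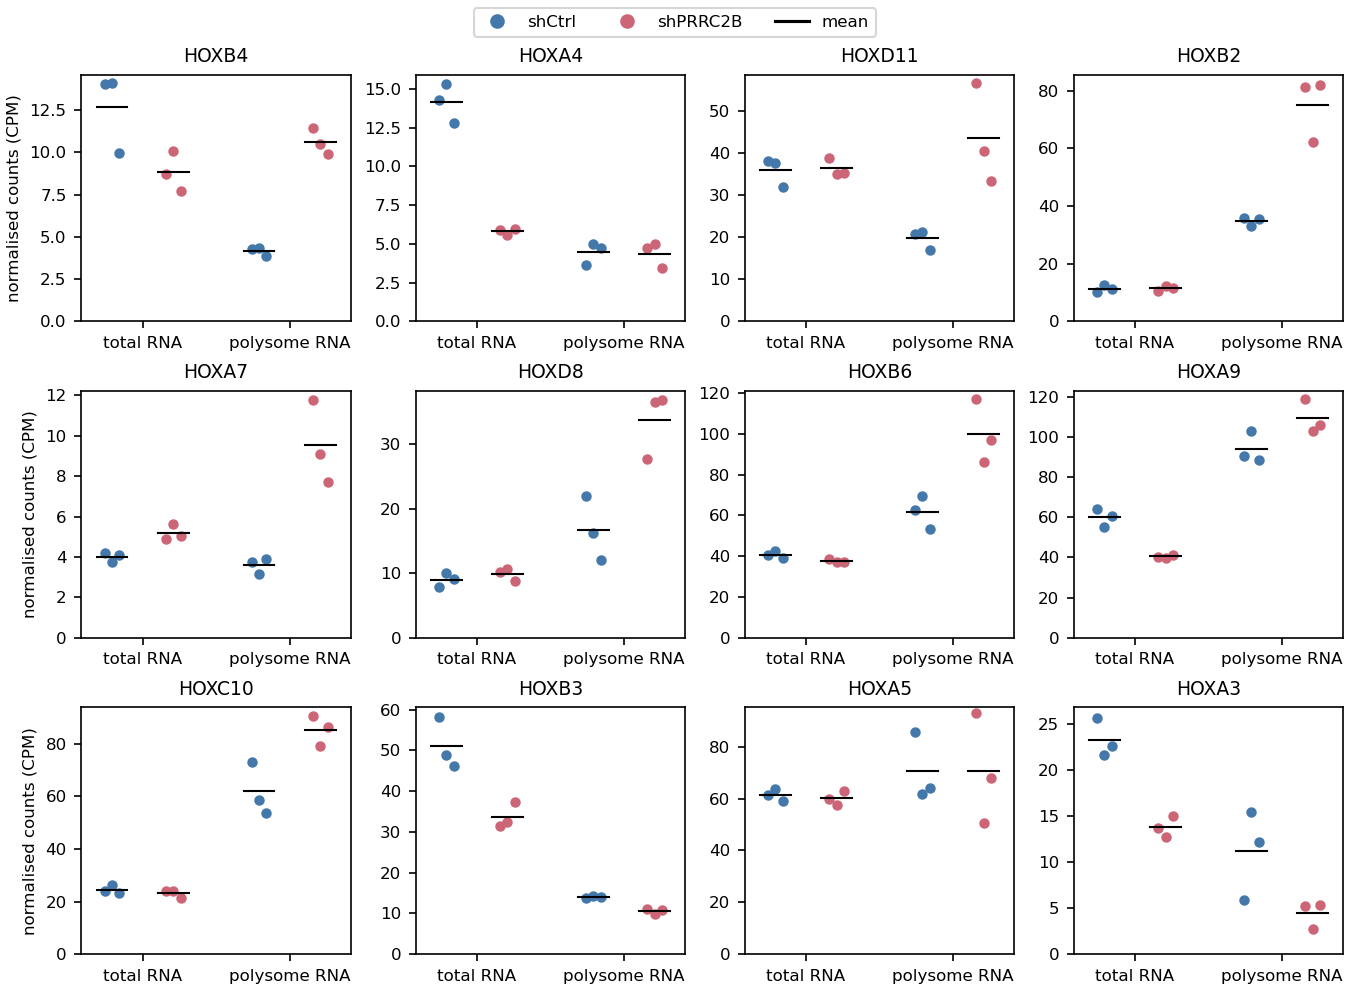
CPM of 12 HOX genes in every library, with total RNA and polysome RNA of each line side by side; each point is 1 library and each bar the mean of 3. HOXB4, HOXD11, HOXB2 and HOXA7 part in polysome RNA, HOXA4 parts in total RNA (5.54 to 5.99 CPM in shPRRC2B cells), and HOXA5 overlaps in both.

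In total RNA, 3 HOX genes were higher in shPRRC2B cells (14.9% of all genes tested were) and 8 were lower (14.1% of all genes). The median log2 change of the 37 was -0.03, beside 0.04 for all genes tested. Scaling by total counts in place of TMM gave 1 higher and 9 lower. The higher genes were HOXB7, HOXB13 and HOXD13, and the lower ones HOXA3, HOXA4, HOXA9, HOXA11, HOXB3, HOXB4, HOXC4 and HOXD3. The HOXA cluster held 4 of the 8 lower genes and had a median log2 change of -0.40. Of the 7 genes tested with numbers 1 to 3, 3 were lower, of the 14 with numbers 4 to 8, 3 were lower and 1 higher, and of the 16 with numbers 9 to 13, 2 were lower and 2 higher. Only HOXA4, HOXA9 and HOXA11 kept their call with every library left out in turn, and without shPRRC2B polysome replicate 1 1 gene was called higher, HOXB13.

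HOXB3 (chr17:48548870-48604912, minus strand), a hindbrain and pharyngeal gene, was at 58.1, 48.9 and 46.1 CPM in shCtrl total RNA and at 31.5, 32.4 and 37.3 CPM in shPRRC2B total RNA, and fell by 0.60 on the log2 scale (SE 0.13, adjusted p = 0.0021, edgeR). Its polysome RNA, at 13.7, 14.2 and 14.1 CPM in shCtrl and 11.0, 9.74 and 10.9 CPM in shPRRC2B cells, was also lower in every library, with a log2 change of -0.40 that did not reach the threshold of size. HOXC4, which has a role in antibody diversification, was at 45.2, 41.4 and 42.0 CPM in shCtrl and at 28.9, 30.1 and 30.1 CPM in shPRRC2B total RNA (log2 change -0.53, standard error 0.15, adjusted p = 0.0117, edgeR). Its polysome values overlapped, at 36.9, 53.0 and 61.8 CPM in shCtrl and 47.4, 48.1 and 44.6 CPM in shPRRC2B cells, and its TE change was 0.42 (adjusted p = 0.161, edgeR).

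HOXB13, a regulator of prostate identity, was at 18.6, 18.8 and 15.4 CPM in shCtrl and at 26.3, 28.7 and 24.5 CPM in shPRRC2B total RNA, and at 41.9, 37.98 and 26.7 CPM in shCtrl and 61.6, 71.1 and 59.6 CPM in shPRRC2B polysome RNA. It rose in both fractions, by 0.58 and 0.85 on the log2 scale, with a TE change of 0.26 (adjusted p = 0.41, edgeR). HOXD13 was at 78.2, 90.3 and 72.4 CPM in shCtrl and at 128, 124 and 112 CPM in shPRRC2B total RNA, and at 195, 92.4 and 105 CPM in shCtrl and 278, 207 and 247 CPM in shPRRC2B polysome RNA. It too rose in both fractions (log2 changes 0.59 and 0.90) with no TE call (0.30, adjusted p = 0.473, edgeR), and shCtrl polysome replicate 1 was nearly as high as the lowest shPRRC2B library. The total RNA call of HOXD13 (adjusted p = 0.0345, edgeR) was lost with 9 of the 12 libraries left out in turn and with scaling by total counts. HOXB7 was at 13.1, 12.9 and 10.5 CPM in shCtrl and at 15.4, 18.9 and 17.7 CPM in shPRRC2B total RNA, a log2 change of 0.51 that lay at the threshold of size and lost its call in 7 of 13 alternatives and with 9 of the 12 libraries left out in turn. The 13 include the fit with no minimum change, which cannot lose a call, and a setting added after seeing the data. In polysome RNA HOXB7 was at 54.5, 44.1 and 44.1 CPM in shCtrl and 58.1, 60.5 and 66.2 CPM in shPRRC2B cells, where the log2 change of 0.37 did not reach the threshold of size.

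In polysome RNA, 11 HOX genes were higher in shPRRC2B cells (18.4% of all genes tested were) and 1 was lower (21.4% of all genes), with a median log2 change of 0.22 beside -0.01 for all genes tested. The HOX median was 0.38 without shCtrl polysome replicate 1, 0.074 without shCtrl polysome replicate 3 and 0.12 after the trend on length was removed. The medians of all genes were then -0.044, -0.060 and 0.017. Higher genes numbered 13 without shCtrl polysome replicate 1, 8 without shPRRC2B polysome replicate 1 and 9 without both. The HOXB and HOXD clusters held 4 higher genes each, and their median log2 changes were 0.41 and 0.91. Besides the genes already described, HOXA6 (log2 change 1.10), HOXC11 (0.52) and HOXD1 (1.94) were higher. The calls of HOXA6 and HOXC11 were lost without either polysome replicate 1 library and with the polysome libraries fitted alone. HOXD1 rested on few reads, with 5, 9 and 9 counts in the shCtrl and 43, 28 and 31 counts in the shPRRC2B polysome libraries. The lower gene was HOXA3, needed for the thymus and the parathyroid glands, at 5.90, 15.4 and 12.2 CPM in shCtrl and 5.25, 2.77 and 5.33 CPM in shPRRC2B polysome RNA. Its total RNA was at 25.7, 21.6 and 22.6 CPM in shCtrl and 13.7, 12.7 and 15.0 CPM in shPRRC2B cells. HOXA3 thus fell in both fractions, by 1.31 in polysome RNA and 0.76 in total RNA on the log2 scale, and its TE change of -0.56 was not called (adjusted p = 0.303, edgeR). Without shCtrl polysome replicate 3, 4 HOX genes were lower in polysome RNA, and without shPRRC2B polysome replicate 1, 3 were.

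HOXA5 and HOXB9, among the most abundant members, were not called between the lines with all libraries in the fit. HOXA5 (chr7:27141052-27143681, minus strand) was at 61.5, 63.7 and 58.9 CPM in shCtrl and at 59.7, 57.6 and 63.0 CPM in shPRRC2B total RNA. Its polysome RNA was at 85.6, 61.8 and 63.9 CPM in shCtrl and at 93.0, 50.6 and 68.0 CPM in shPRRC2B cells. The lines overlapped in both fractions, replicate 1 was the highest polysome value of each line, and the TE change was 0.03 with a standard error of 0.25. The sign of that value was negative in several alternatives. HOXB9 was at 129, 134 and 129 CPM in shCtrl and at 160, 166 and 151 CPM in shPRRC2B total RNA, every value higher but by only 0.28 on the log2 scale (adjusted p = 0.142, edgeR). Its polysome RNA was at 81.9, 123 and 123 CPM in shCtrl and at 107, 119 and 92.4 CPM in shPRRC2B cells. The overlap came from shCtrl replicate 1 alone at the low end, and without that library HOXB9 was TE-down.

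Within a line, the polysome-to-total ratio shows how far an mRNA was recovered with ribosomes relative to other mRNAs. In shCtrl cells 11 of the 37 HOX genes had a higher level in polysome than in total RNA (32.5% of all genes tested did) and 14 a lower one (39.8%). In shPRRC2B cells 17 were higher (36.6% of all genes) and 10 lower (42.3%). The median log2 ratio of the HOX genes was -0.22 in shCtrl and 0.26 in shPRRC2B cells, beside -0.22 for all genes in each line. Without shPRRC2B polysome replicate 1 the HOX median in shPRRC2B cells turned negative, -0.058, beside -0.34 for all genes, and it was -0.051 without both polysome replicate 1 libraries. In shCtrl cells it was -0.088 without polysome replicate 2 and -0.32 without polysome replicate 1, beside -0.28 and -0.30 for all genes. These splits depended on how the fractions were put on a common scale. With scaling by total counts the median of all genes went to -1.22 in shCtrl and -1.16 in shPRRC2B cells, and the HOX genes split 2 higher to 25 lower in shCtrl and 4 higher to 20 lower in shPRRC2B cells. With the length trend removed they split 6 to 19 and 9 to 16, with HOX medians of -0.73 and -0.43, beside -0.026 and 0.0033 for all genes.

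The order of the ratios ran from HOXD9, with a log2 ratio of -3.28 in shCtrl and -3.19 in shPRRC2B cells, to HOXB7, the highest in shCtrl at 1.96 and 1.83 in shPRRC2B cells, and HOXB2, at 1.62 and 2.71. The HOXD cluster had the lowest median in shCtrl cells (-1.42) and its median in shPRRC2B cells was -0.50. TE changes were above 0 in all 9 HOXD genes (median 0.87), although only HOXD8 and HOXD11 were called. The medians of the HOXA, HOXB and HOXC clusters were 0.54, 0.26 and 0.33, with 3 of 11, 3 of 9 and 1 of 8 genes tested TE-up. By number, 1 of 7 genes of groups 1 to 3 was TE-up (median 0.19), 5 of 14 of groups 4 to 8 (median 0.61) and 3 of 16 of groups 9 to 13 (median 0.32). Of all genes tested, 10.7% were TE-up, and differences between these small groups of genes were not tested. Genes of one cluster are neighbours and are no replicates of it, so these medians are descriptions.

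**Figure D4:**
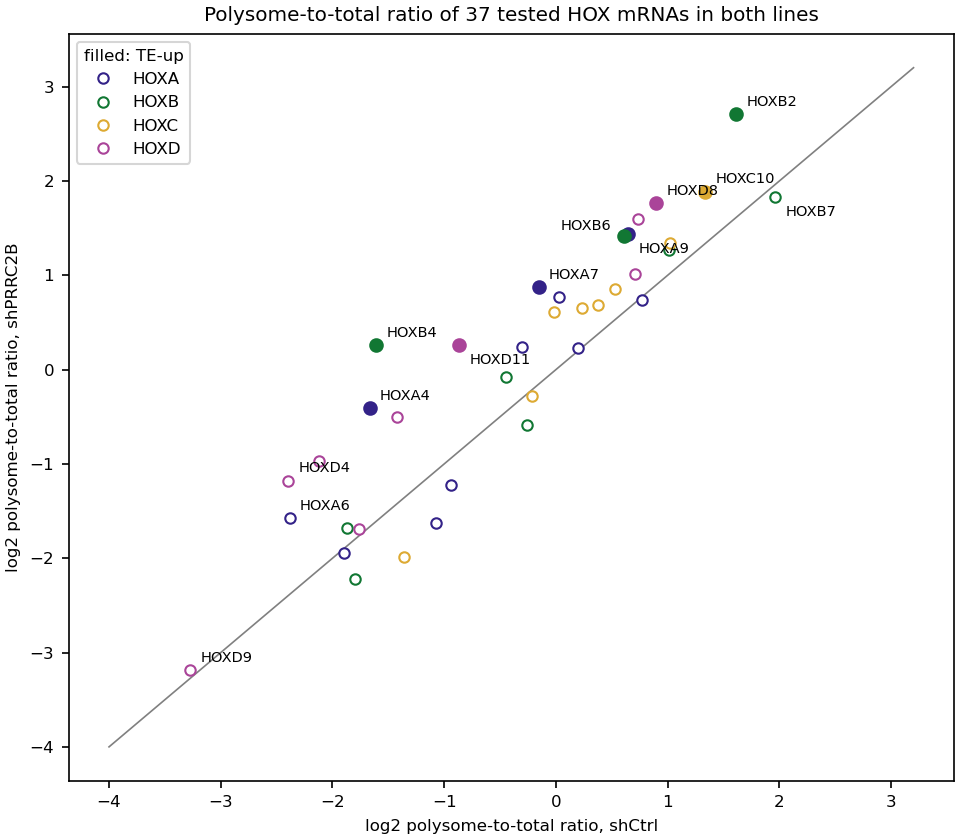
Log2 polysome-to-total ratio of the 37 HOX genes in shCtrl cells (horizontal axis) and shPRRC2B cells (vertical axis), coloured by cluster; filled points were TE-up and the diagonal marks equal ratios. HOXB4 lies furthest above the diagonal, at -1.61 and 0.26, and HOXB7 and HOXD9 lie close to it at the upper and lower ends.

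HOX mRNAs are short. The median length of the canonical transcript was 2016 nt for the 37 HOX genes and 3382 nt for the 13609 protein-coding genes tested, and the coding sequence had a median of 870 nt against 1419 nt. The TE change moved with length across all protein-coding genes, from a median of 0.43 in the shortest of 10 length bins to -0.77 in the longest. Within the length range of the HOX genes, 989 to 5015 nt, 9125 protein-coding genes had a median TE change of -0.04, with 10.1% TE-up and 14.2% TE-down. Of the 37 HOX genes, 27 lay above the median TE change of their own length bin and 16 above its upper quartile. With the trend on length removed from each library, 8 HOX genes were TE-up, 7 of them among the 9. The median TE change in that fit was 0.37 for the HOX genes and 0.03 for all 15762 genes tested. The share of all genes called in that fit was not counted.

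**Figure D5:**
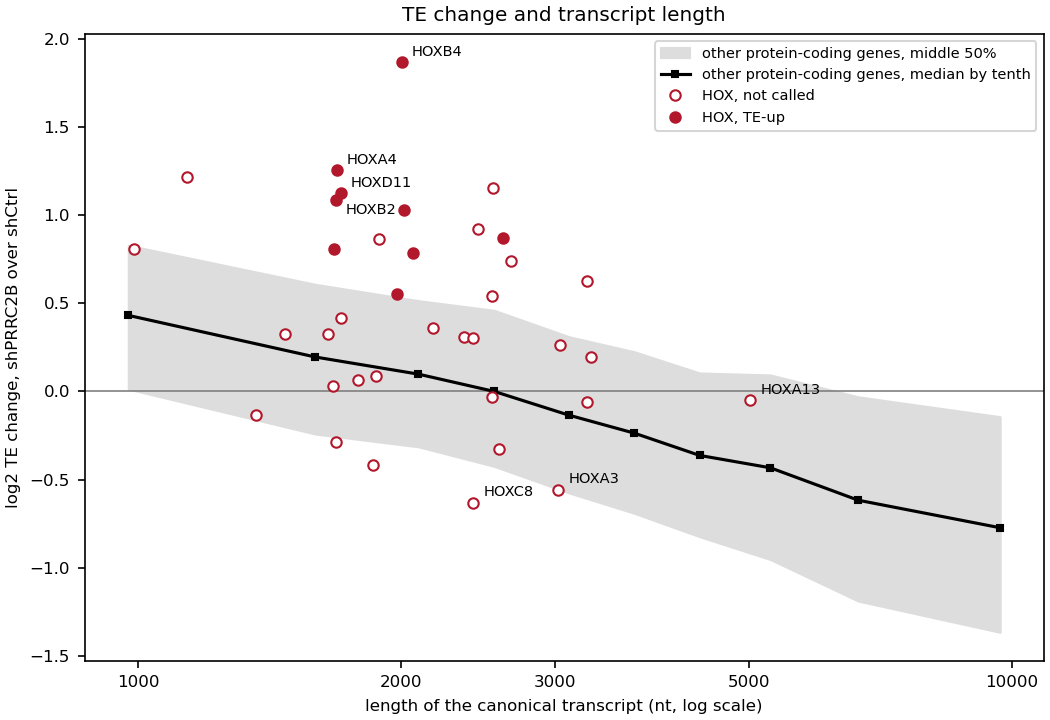
Log2 TE change against canonical transcript length in nt (log axis); coloured points are the 37 HOX genes, and the grey band and line are the middle 50% and the median of the other protein-coding genes in 10 bins of length. The line falls from left to right, and HOXB4 at 1.87 lies furthest above the band.

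The bases just before the start codon are shown because they form the sequence that a scanning ribosome meets at the start site, and because those of paralog group 4 hold an uncommon base in common. Each sequence is the canonical GENCODE 44 transcript read 5′ to 3′ from 9 bases before the start codon to 1 base after it, with the third base upstream, the start codon and the base after it in capitals. The group 4 and group 7 genes read as follows.
HOXA4: cacaaaTtaATGA
HOXB4: cagaaaTtaATGG
HOXC4: cagaaaTtaATGA
HOXD4: ctgaaaTtaATGG
HOXA7: gtcaaaAttATGA
HOXB7: ggccaaAttATGA
The 4 genes of group 4 share T at the third base upstream, and the TE change was 1.26 for HOXA4, 1.87 for HOXB4, 0.42 for HOXC4 and 1.22 for HOXD4 (not called, adjusted p = 0.0944, edgeR). HOXD4 had few polysome reads, 22, 14 and 4 counts in shCtrl and 30, 16 and 38 in shPRRC2B cells. The other tested HOX genes with T there, HOXB13 and HOXD3, had TE changes of 0.26 and 0.92, neither called. Of the 6 tested genes with T, 2 were TE-up. HOXA7 and HOXB7 both have A there, with TE changes of 1.03 and -0.14. A purine at this place is the common form in vertebrate mRNAs. It was found in 25 of the 37 HOX genes tested (67.6%) and in 86.8% of 13542 protein-coding genes, and T in 6 of the 37 (16.2%) and in 4.56% of protein-coding genes. Among the TE-up genes 5 of 9 (55.6%) had a purine, and among the others 20 of 28 (71.4%). No test was made of these shares.

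HOX genes lie close together and share transcribed sequence with each other and with antisense RNAs, and no strand option is stated for the counting. Of the 37 tested, 8 shared more than 25% of their exon length with other genes, and 4 of these were TE-up, HOXA4, HOXA7, HOXA9 and HOXB6, with a median TE change of 0.81 over the 8. Of the other 29, 5 were TE-up, HOXB2, HOXB4, HOXC10, HOXD8 and HOXD11, with a median of 0.30. Over all genes tested the TE-up share was 10.7%. HOXA7 shared 62.5% of its exon length, with the antisense RNA HOXA-AS3, HOXA4 shared 47.8% and HOXB6 32.9%, in part with HOXB3. HOXD1 shared 60.1% with antisense genes, HAGLR among them. With no strand or multiple-overlap option stated, read pairs over such stretches would not be counted for either gene. The part of shared exons in the changes was not tested.

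The study's PAR-CLIP tables, which place crosslinked binding sites of tagged PRRC2B, list a site for HOXB3, HOXB4, HOXB6 and HOXA5. Set against the gene models, 1 and the same site of 100 nt for full-length PRRC2B stood behind the entries of HOXB3, HOXB4 and HOXB6. It lay within an intron of HOXB3, 1514 nt from HOXB4 and 15788 nt from HOXB6, and 0 of its bases were in exons of the 3 genes. It overlapped the hairpin of the microRNA gene MIR10A (chr17:48579838-48579947, minus strand, GRCh38) by 84 nt and covered both of its mature products. The pair is shown because the entries for HOXB4 and HOXB6 turn on it, from RefSeq on GRCh38.p14, 5′ to 3′ with the seed (bases 2 to 8) in capitals.
hsa-miR-10a-5p: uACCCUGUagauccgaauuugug
hsa-miR-10a-3p: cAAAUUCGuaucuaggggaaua
MicroRNA miR-10a is encoded among the HOX genes it lies beside and is known to target HOX mRNAs. The libraries were selected for poly(A) RNA and do not measure mature microRNAs. The HOXA5 site was different, with 100 of its 100 nt in HOXA5 exons, and it was listed for the full-length protein only. HOXB3, HOXB4 and HOXB6 were also listed for P2, an RNA-binding fragment of PRRC2B. Their P2 site, chr17:48579866-48579965, overlapped the MIR10A hairpin by 82 nt. The TE changes of the 4 genes, given above, were 0.19 for HOXB3, 1.87 for HOXB4, 0.81 for HOXB6 and 0.03 for HOXA5.

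The partners and regulators of HOX genes were counted in the same comparisons. All 9 TALE cofactors passed the filter, and 1 was TE-up and 2 TE-down, beside 10.7% and 16.4% of all genes tested. Their median log2 TE change was 0.02. MEIS1, which binds DNA with HOXA9, was TE-down (-0.68, adjusted p = 0.0494, edgeR) and MEIS3 TE-up (0.75, adjusted p = 0.00901, edgeR). PBX3 was lower in total RNA, by 0.83 on the log2 scale. Of 19 chromatin regulators of HOX clusters 18 were tested, and 8 of these were TE-down, beside 16.4% of all genes and 20.9% of protein-coding genes tested. Among the 8 were KMT2A, the trithorax methyltransferase (-1.46), and KAT6A, an acetyltransferase that keeps HOX genes active (-1.94). PSIP1, which tethers the KMT2A complex (-0.79), and SUZ12, a Polycomb repressive complex 2 subunit (-1.37), were also among them. The median TE change of the 18 was -0.34, and their median transcript length was 3904 nt, beside 3382 nt for all protein-coding genes tested. In the length bin that holds 3904 nt, from 3387 to 4038 nt, protein-coding genes had a median TE change of -0.24. The part of length in these changes was not tested. Of 5 CDX and flanking homeobox genes CDX2 alone passed the filter, and it was not called in any comparison between the lines.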

How the data were processed

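Poly(A) RNA of total lysate and of pooled polysome fractions was sequenced from 12 libraries, 3 per group. The authors deposited raw counts of read pairs per gene name in 1 table. Per the labels, the processing notes name bcl2fastq 2.19.0, Trimmomatic 0.36, HISAT2 2.1.0 (the study's methods give another HISAT2 version), featureCounts of Subread 2.0.1 on GRCh38 with GENCODE 38, R 4.1.2 and DESeq2. No strand or multiple-overlap option is stated, so pairs over more than 1 gene would not be counted and strand would not be told apart. In the table, 0 columns belonged to no sample.

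From these counts, edgeR 4.0.16 (R 4.3.3, limma 3.58.1) was run with TMM scaling over all libraries, filterByExpr (minimum count 10) and quasi-likelihood tests on the 4 groups of line and fraction, without a replicate block and with Benjamini-Hochberg adjustment over the 18166 genes tested. Calls needed an adjusted p under 0.05 and an absolute log2 change over 0.5, the study's thresholds. The code was tested on simulated data. Replicates were labelled biological and no 2 libraries of a group agreed within sampling noise. Alternatives were DESeq2 1.42.0, its size factors, scaling by total counts, TMM within fractions, 2 other count filters, limma on log2(CPM + 1), each fraction alone, replicate blocks, removal of the transcript length trend (lowess span 0.3), no minimum change, and each library left out. Leaving out both polysome replicate 1 libraries was added after seeing the data. With no minimum change a call cannot be lost. Transcripts, exons and start sites came from GENCODE 44 on GRCh38 and microRNAs from RefSeq. Binding sites from the study's tables were used for their positions only.

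Values per library are given for up to 8 HOX genes of smallest adjusted p in each comparison between the lines, the genes with a listed binding site and the highest genes of each cluster per kilobase. HOXC10 is also the ninth TE-up gene. Some genes are not reported here by name. Other HOX genes are given by counts or single values, and up to 4 called genes of each further list are named. The members and lists were chosen with earlier results of these data known. Intervals from counting were not used, and the spread given is that between libraries.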

Additional observations from a re-analysis of the deposited data

Results flagged for a closer look

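HOXB4 stood out because its total RNA and its polysome RNA passed the thresholds in opposite directions between the lines. Total RNA fell by 0.53 on the log2 scale and polysome RNA rose by 1.34, and the test of the difference between the fractions is the TE change itself, 1.87 with an adjusted p of 0.000182 from edgeR's quasi-likelihood test. Each of the 3 shPRRC2B polysome values was above each of the 3 shCtrl values, whereas the total RNA values overlapped. The total RNA call (adjusted p = 0.0348, edgeR) was lost with every gene of at least 1 count, with limma and with 4 of the 12 libraries left out in turn, where the adjusted p reached 0.154.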

How the results depend on the processing

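The TE-up count of 9 was 8 to 13 under the alternatives that kept all libraries and the count of TE-down genes was 0 in each of them. Shares of all genes called were not counted for these alternatives or for the fits with libraries left out. Leaving out single libraries gave 6 to 14 TE-up and 0 to 2 TE-down genes, 0 to 3 higher and 3 to 8 lower in total RNA, and 8 to 13 higher and 1 to 4 lower in polysome RNA. Left-out libraries gave 9 to 12 higher and 13 to 16 lower polysome-to-total ratios in shCtrl cells, and 15 to 17 higher and 10 to 12 lower ones in shPRRC2B cells. The 14 TE-up and 2 TE-down genes came without shCtrl polysome replicate 1, and without both polysome replicate 1 libraries, a setting chosen after seeing the data, there were 14 TE-up, 3 TE-down and 3 genes lower in polysome RNA. In total RNA, 0 genes were higher without shCtrl total replicate 3, and 1 was higher without shPRRC2B total replicate 2 or 3, or without shPRRC2B polysome replicate 1, 2 or 3. Lower genes in total RNA were 3 without shCtrl total replicate 1, 5 without shCtrl total replicate 2, 4 without shPRRC2B total replicate 1 and 5 without shPRRC2B total replicate 3. Lower genes in polysome RNA were 2 without shCtrl polysome replicate 1 or shPRRC2B polysome replicate 3, 4 without shCtrl polysome replicate 3 and 3 without shPRRC2B polysome replicate 1, and 2 with every gene of at least 1 count or with no minimum change. Scaling by total counts gave 1 higher gene in total RNA. For the ratio in shCtrl cells, total count scaling and TMM within fractions each gave 2 higher and 25 lower genes and removal of the length trend 6 higher, with or without the replicate block. In shPRRC2B cells the same scalings each gave 4 higher and 20 lower genes, and removal of the length trend 9 higher and 16 lower, with or without the block. The TE change of HOXA5, 0.03, was -0.012 with every gene of at least 1 count, -0.16 with the length trend removed, -0.17 with the block as well and -0.10 without both polysome replicate 1 libraries. Without single libraries it ran from -0.28 to 0.20, and was negative in 4 cases (-0.28, -0.10, -0.084 and -0.0053). The causes were not tested. Deviations of same-numbered libraries correlated between -0.127 and 0.167 over 10051 genes, with both ends from pairs between the lines. Between total and polysome RNA of shCtrl cells, same-numbered libraries correlated at 0.0014 to 0.040 and differently numbered ones at -0.090 to 0.061. In shPRRC2B cells these correlations were 0.040 to 0.070 and -0.067 to 0.020. Whether the replicate numbers pair the samples was not tested. A replicate block across all groups gave 10 TE-up genes, 3 higher and 7 lower in total RNA and 11 higher and 1 lower in polysome RNA, and a block within each line gave 8 TE-up genes. Depth limits the statements on HOXD1, HOXD12, HOXC5 and other members with few polysome reads.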

Other observations

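The noncoding RNAs transcribed within the HOX clusters were counted in the same way. For these RNAs a TE change is only a change in the polysome-to-total ratio and does not measure translation. Of 18 listed, 17 were tested and 8 were TE-up, beside 10.7% of all genes tested, with a median log2 TE change of 0.80. In total RNA 8 were lower in shPRRC2B cells, beside 14.1% of all genes tested, and 1 was higher, beside 14.9%, with a median log2 change of -0.53. HOTAIRM1, a noncoding RNA of the HOXA cluster, was at 38.6, 35.8 and 31.0 CPM in shCtrl and at 13.5, 12.1 and 14.7 CPM in shPRRC2B total RNA. In polysome RNA it was at 178, 145 and 147 CPM in shCtrl and at 215, 249 and 311 CPM in shPRRC2B cells. Its total RNA was lower and its polysome RNA higher in every shPRRC2B library, with a TE change of 2.11 (adjusted p = 1.11e-05, edgeR). HOTAIR, transcribed within the HOXC cluster, had a TE change of 1.19, with total RNA lower by 1.25 on the log2 scale. HOXA11-AS and HOXC-AS1 had TE changes of 1.27 and 2.28. Several of these RNAs overlap exons of HOX genes. With no strand or multiple-overlap option stated, read pairs over the shared stretches would not be counted. The part of these overlaps in the values was not tested.

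HOXC5, which did not pass the filter, had 11, 10 and 6 counts in shCtrl and 6, 7 and 9 counts in shPRRC2B total RNA. In polysome RNA it had 0, 0 and 3 counts in shCtrl and 9, 10 and 7 counts in shPRRC2B cells. It shared 67.3% of its exon length with other genes.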
